A study of Mus musculus with 2 samples.

Results

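The genes described here flank Crtc1 on mouse chromosome 8. They were chosen by position, with some named genes left out: the members are probe sets that the platform annotation of the Mouse Genome 430 2.0 array pairs with 1 gene, where that gene is protein-coding and its lower end lies between 65 and 80 Mb of chromosome 8 in assembly GRCm38. Crtc1 itself, Npy1r, Npy5r, Lpl, Plvap, Upf1 and Msmo1 were left out by the rule, although Msmo1 starts just below 65 Mb. All 6 of those inside the stretch were measured, and 5 of them (Crtc1, Npy1r, Lpl, Upf1 and Plvap) differed at least 1.5-fold, so the counts below also depend on leaving them out. This gave 253 probe sets of 138 genes, out of 32755 probe sets of 16467 protein-coding genes with a position. Of the members, 159 probe sets and 98 genes were measured, which means that the mean log2 signal of both arrays reached the median of all probe sets, a signal of about 52.3. The other 94 probe sets lay below that limit, 43 of them at the floor on both arrays, and 40 genes had no measured probe set. No measured gene was at the floor on either array. Another 32 protein-coding genes of the stretch have no probe set paired with them alone and are not analysed here.

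The groups were male mice of 12 weeks, either Crtc1 knockout or wild type, which went without food for 18 h and were then refed for 6 h. Hypothalamus RNA of 3 mice of a genotype was mixed in equal amounts and hybridised to 1 array, so each group is 1 pooled sample. The sources used here name neither the mouse strain nor the kind of Crtc1 allele. With 1 array a group, no difference has a replicate check and no p-value is given.

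Crtc1 is a coactivator that joins the transcription factor CREB when cAMP and calcium signals rise, and CREB binds a palindromic DNA element, the cAMP response element. Genes close together on a chromosome are usually inherited together. In a mouse line with an altered gene, the DNA around that gene can therefore come from the strain in which the alteration was made. The stretch around Crtc1 is gene-dense, and its genes have no common function. They include the vesicle genes Rab3a and Unc13a, the perineuronal matrix genes Ncan and Hapln4, the AP-1 gene Jund, and a cluster of zinc finger genes. Loss of Crtc1 and a difference in the linked DNA cannot be told apart in this design.

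Signals are the deposited linear values, and a difference is the log2 signal of the knockout minus that of the wild type, after a floor at the 30th percentile of each array. The array error given beside a difference is the SD of such differences between the measured probe sets of one gene, whatever their signals. It was pooled over the whole array by the signal class of each probe set. It fell from 0.32 for the dimmest probe sets (mean log2 signal under 7) through 0.26, 0.23 and 0.21 to 0.16 for the brightest (10 and above), in steps of 1. It holds no spread between mice. Neuron markers had a median difference of -0.02 over 6 measured genes, and 8 of 12 hypothalamus markers were measured, among them Avp, Oxt, Hcrt and Pmch, with a median of -0.09 and summed signals of 7579 in the knockout and 7114 in the wild type. None of 6 pituitary markers was measured. Choroid plexus markers were lower in 8 of 10 (median -0.27), with summed signals of 9052 (knockout) and 10152 (wild type). Microglia markers were higher in 7 of 10 (median 0.18), with summed signals of 4921 and 4377. Markers of cortex and hippocampus were higher in 4 of 6 (median 0.15), with summed signals of 1673 and 1569, and astrocyte markers in 6 of 7 (median 0.07), with 13165 and 12582. Of 5 measured oligodendrocyte markers 3 were lower (median -0.05). The part of these shifts in the results below was not tested. Crtc1 itself read 85.1 in the knockout and 631 in the wild type.

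The following promoters are printed because they hold the full cAMP response element before genes that stood on different sides: Tmem59l was lower in the knockout pool, Zfp868 read higher, and Cope, which lies among the genes next to Crtc1, differed little. Each is the RefSeq sequence (GRCm38.p6) of the 250 bases before the annotated start, 5′ to 3′ on the strand of the gene. Capitals mark the motif TGACGTCA and its shorter core, TGACG or CGTCA.
Tmem59l, chr8:70487349-70487598, minus strand: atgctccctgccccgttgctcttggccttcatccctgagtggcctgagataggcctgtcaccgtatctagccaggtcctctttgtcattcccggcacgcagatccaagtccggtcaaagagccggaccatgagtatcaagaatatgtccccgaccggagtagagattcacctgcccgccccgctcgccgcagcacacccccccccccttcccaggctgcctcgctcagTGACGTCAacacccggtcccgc
Zfp868, chr8:69625176-69625425, minus strand: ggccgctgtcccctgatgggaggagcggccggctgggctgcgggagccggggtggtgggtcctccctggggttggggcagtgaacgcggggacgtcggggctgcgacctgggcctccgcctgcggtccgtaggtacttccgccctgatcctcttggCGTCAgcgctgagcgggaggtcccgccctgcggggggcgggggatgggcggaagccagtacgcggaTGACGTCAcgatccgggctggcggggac
Cope, chr8:70302517-70302766, plus strand: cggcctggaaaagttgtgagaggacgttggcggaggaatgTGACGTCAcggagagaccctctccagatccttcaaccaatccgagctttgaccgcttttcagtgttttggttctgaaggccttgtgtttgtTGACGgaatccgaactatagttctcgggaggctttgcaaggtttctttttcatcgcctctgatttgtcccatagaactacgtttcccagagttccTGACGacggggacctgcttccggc
The full motif lay 22 bases before the start of Tmem59l, 28 bases before that of Zfp868 and 210 bases before that of Cope.

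Of the 98 measured genes around Crtc1, 8 (8.16%; exact binomial 95% interval 3.59% to 15.5%, for counting error only) differed at least 1.5-fold between the pools. The share was 3.25% of the 10922 measured genes outside the stretch. Of the 8, 6 were lower in the knockout pool, against 1.36% of outside genes, and 2 were higher, against 1.89%. At 2-fold, 3 genes (3.06%, interval 0.636% to 8.69%) passed, all lower, against 0.385% outside. The limit for a measured gene is on the mean of both pools, and Haus8 was the 1 of these 8 genes whose lower pool lay below it. Sizes differed too: the median absolute difference was 0.19 in the stretch and 0.13 outside. A difference below 1.2-fold was seen in 66.3% of the members and in 78.6% of outside genes. In both directions together the stretch had little tilt, with 52 genes lower, 46 higher and a median difference of -0.02. In all, 13 members (13.3%) differed by more than 2 array errors, against 4.15% outside. That error is taken over the whole array. Among members the SD between probe sets of one gene was larger (0.40, against 0.25 in others), so 2 array errors were a lower bar for them. In pooled tissue, fewer cells of a type and less RNA per cell cannot be told apart.

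**Figure D1:**
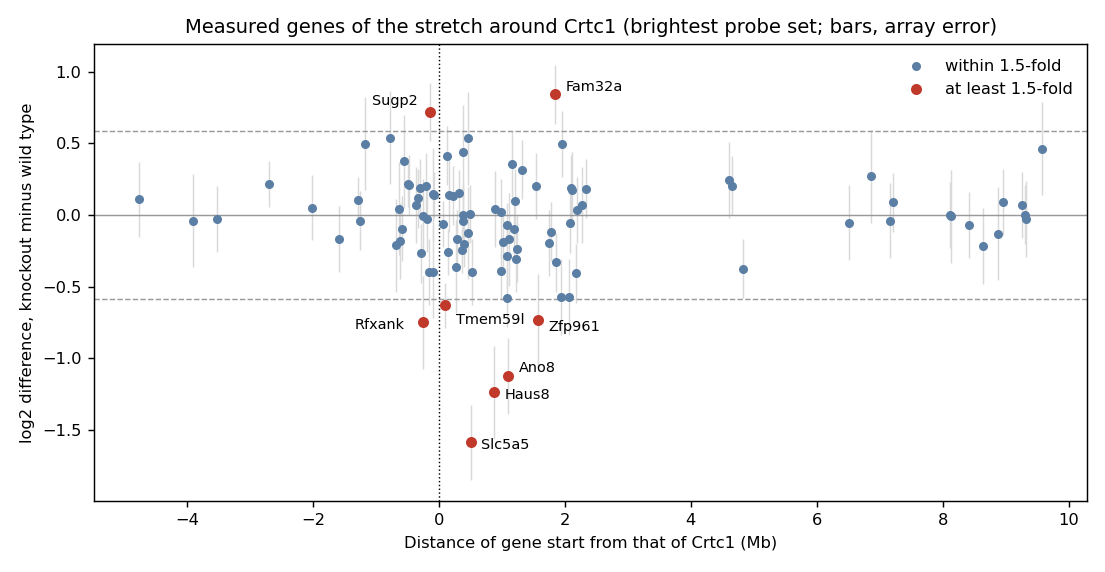
Log2 difference of the 98 measured genes (knockout minus wild type, brightest probe set) against the distance of the gene start from that of Crtc1 in Mb; bars are the array error and dashed lines mark 1.5-fold. The 8 members past 1.5-fold all lie within 2.5 Mb of Crtc1, and 6 of them are lower in the knockout pool. The genes left out by the rule are not shown.

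The largest difference was that of Slc5a5, the gene of the iodide transporter that takes up iodide with sodium, which lies 0.50 Mb from Crtc1. Its brightest probe set read 78.0 in the knockout and 234 in the wild type (log2 difference -1.59, array error 0.26). Its second probe set read 39.0 and 110.0 (2.82-fold lower, array error 0.32), also lower in the knockout pool. In the knockout this second reading lay below the limit of 52.3. It was thus measured through the wild-type pool and supports nothing on its own. Both probe sets read the same 2 pools and are not replicates. Haus8, a subunit of the augmin complex that branches spindle microtubules, lies 0.87 Mb away. It read 51.0 against 120.1, 2.35-fold lower (-1.24, array error 0.32, 1 probe set). Haus8 too was below the limit in the knockout, so it was measured through the wild-type pool and supports nothing on its own. Ano8, an anoctamin that tethers the endoplasmic reticulum to the plasma membrane, lies 1.09 Mb away and read 119.6 against 261, 2.18-fold lower (-1.12, array error 0.26, 1 probe set). These were the 3 members past 2-fold, and each stayed lower and past 1.5-fold in every alternative of scaling, floor, filter and probe-set rule that measured it.

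Tmem59l, a membrane protein gene expressed in brain, lies 0.10 Mb from Crtc1 and read 2054 against 3181 (-0.63). Its array error is 0.16, the smallest class, and it passed 1.5-fold in all 10 alternatives. It has 1 measured probe set, far above the floor. Thus only the scalings and the pseudocount could change its value, and all alternatives reuse the same 2 arrays. Zfp961, a zinc finger gene 1.57 Mb away, read 65.9 against 109.6 (-0.73, array error 0.32, 1 probe set). Rfxank, whose protein is part of the RFX complex that activates MHC class II genes, read 78.7 against 132.1 by its brightest probe set (-0.75). Its other probe set went the opposite way, at 91.4 against 59.3 (0.62), and the mean of both was -0.06, so Rfxank had no settled direction.

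The members past 1.5-fold in the other direction were Fam32a and Sugp2. Fam32a, found in late spliceosomes, lies 1.84 Mb from Crtc1 and read 798 against 445 (0.84, array error 0.21). Its second probe set differed by 0.16, and the mean of both was 0.50, under 1.5-fold. Sugp2, which encodes an SR-related splicing protein, read 691 against 420 (0.72, array error 0.21), but its next probe set differed by -0.35, and averaging all 3 gave 0.09. Without the probe sets whose names mark a possible match to several transcripts, Sugp2 turned to -0.35 and Fam32a had no reading left.

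**Figure D2:**
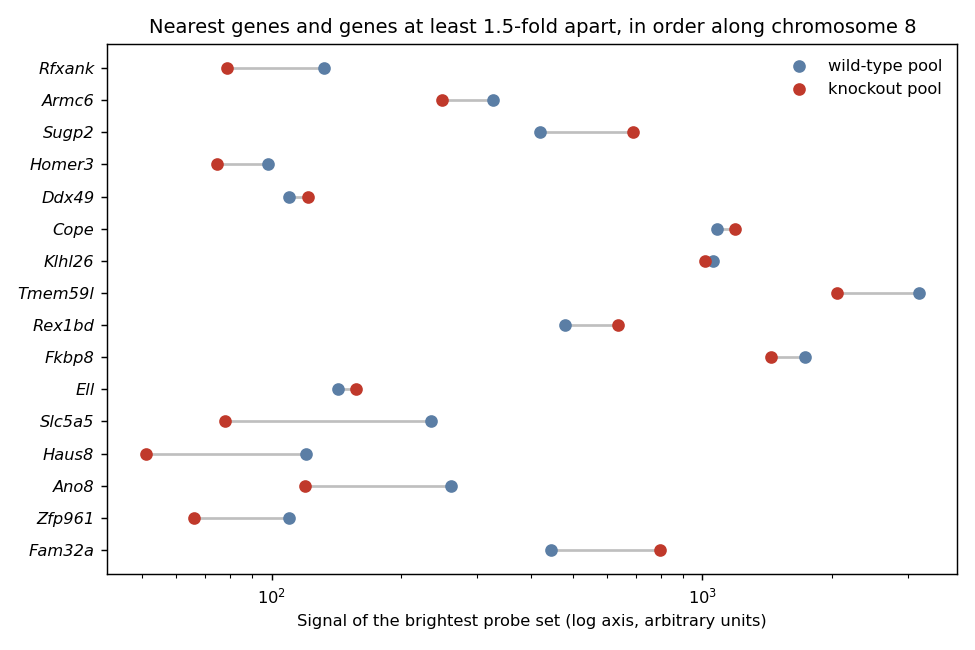
Signals of the 5 measured members nearest to Crtc1 on each side and of all members at least 1.5-fold apart, in order along the chromosome from top to bottom. The axis is logarithmic, and each row holds 1 knockout and 1 wild-type pool value. Upf1, left out by the rule, is not shown. The widest gaps are those of Slc5a5 (78.0 and 234), Haus8 (51.0 and 120.1) and Ano8 (119.6 and 261), while Klhl26, the next gene to Crtc1, read 1013 and 1058.

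The members next to Crtc1 did not differ as a block. Upf1, left out by the rule, lies closer than any member on the side of lower coordinates, at 0.05 Mb. It read 68.9 against 124.1 (-0.85, array error 0.32, 1 probe set). On the side of lower coordinates, Cope, a coatomer subunit of vesicle transport, read 1189 against 1079 (0.14), and Ddx49, an RNA helicase gene, 121.5 against 110.0 (0.14). Both differences were within their array errors of 0.16 and 0.32. Homer3, a postsynaptic scaffold, read 74.5 against 98.1 (-0.40, array error 0.32), and Armc6, an armadillo repeat gene, 248 against 327 (-0.40, array error 0.23). On the other side, Klhl26, a Kelch-like gene that starts 0.07 Mb away, read 1013 against 1058 (-0.06). Rex1bd, 4 genes from Crtc1, read 638 against 479 (0.41, array error 0.21), and Fkbp8, an immunophilin of the mitochondrial surface, 1443 against 1728 (-0.26, array error 0.16). Ell, a transcription elongation factor, read 157.0 against 142.3 (0.14), while its other probe set was 1.81-fold higher. Along the whole stretch, neighbouring measured genes had the same sign in 45 of 97 pairs (46.4%), against 51.9% of 10901 neighbour pairs elsewhere, so lower and higher genes were interleaved. The longest runs of one sign were 6 genes each: from Pbx4 to Hapln4 every gene read higher in the knockout pool, and from Babam1 to Gtpbp3, a run that holds Dda1 and Ano8, every gene read lower.

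By distance, the genes past 1.5-fold lay from 1 Mb below Crtc1 to 2.5 Mb above it, where most measured members are. Among 21 genes up to 1 Mb below Crtc1, 2 passed 1.5-fold and the median absolute difference was 0.20. Among 23 genes up to 1 Mb above, 3 passed and the median was also 0.20. From 1 to 2.5 Mb above, 3 of 28 genes passed and the median was 0.22, the highest of the 3 classes with over 20 genes. The 14 genes over 5 Mb above Crtc1 had a median of 0.07, and the 4 genes over 2.5 Mb below it 0.07. The class from 2.5 to 5 Mb above held 3 genes, with a median of 0.24. From 1 to 2.5 Mb below Crtc1, 0 of 5 genes passed and the median was 0.11, under the 0.13 of genes outside the stretch. In all, 8 of 77 members within 2.5 Mb (10.4%, interval 4.59% to 19.4%) and 0 of 21 beyond it (interval up to 16.1%) passed 1.5-fold. These intervals overlap and cover counting error only. Whether the near and the far genes differ in this share was not tested, with 21 far genes and 1 array a group. The median absolute difference was 0.20 in the near genes and 0.09 in the far ones.

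**Figure D3:**
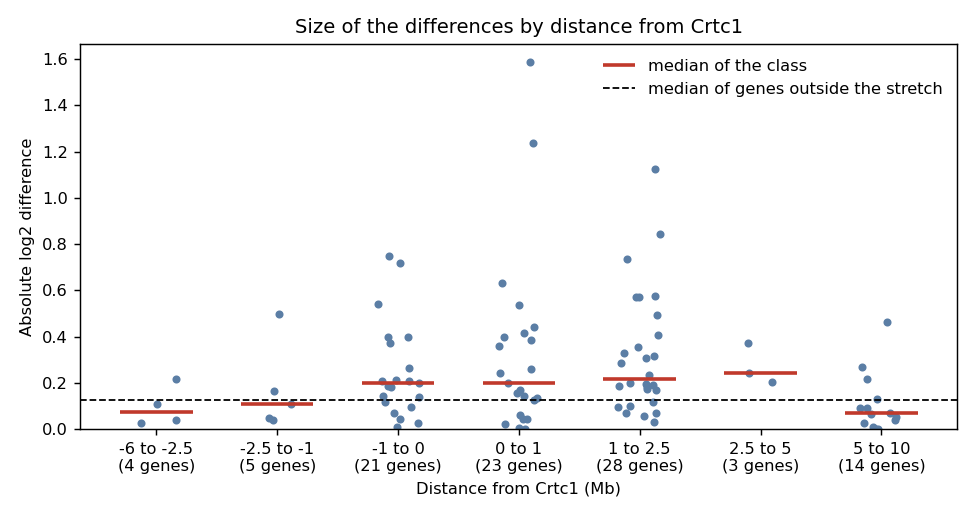
Absolute log2 differences of the measured members by distance from Crtc1; points are genes, red bars are class medians, and the dashed line is the median of genes outside the stretch (0.13). The 3 classes from -1 to 2.5 Mb have medians of 0.20, 0.20 and 0.22, and the class from 5 to 10 Mb has 0.07.

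The genes at the ends of the stretch follow. Marchf1 and Tma16, the measured genes just above 65 Mb, differed by 0.11 and -0.04, and just below it Tmem192 and Klhl2 differed by -0.28 and 0.60. Klhl2 read 636 against 420 and thus passed 1.5-fold outside the stretch. Just below 80 Mb, Anapc10, a subunit of the anaphase-promoting complex, differed by -0.03, and Hhip, which binds and restrains hedgehog ligands, read 66.3 against 48.1 (0.46, array error 0.32). Smarca5 and Gab1, the next measured genes above 80 Mb, differed by 0.27 and 0.08.

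The differences were not confined to dim probe sets, which vary most on arrays. Among members with a mean log2 signal of 9 to 10, 2 of 24 passed 1.5-fold, against 12 of 1990 outside genes of that signal. These were Sugp2 and Fam32a, which averaged 0.09 and 0.50 over their measured probe sets, both under 1.5-fold. At 10 and above, 1 of 11 members passed, Tmem59l, against 2 of 1764. The medians of the absolute difference were 0.20 against 0.10 in the former class and 0.20 against 0.09 in the latter. Below 7, 3 of 20 members passed against 10.5% of outside genes, with medians of 0.37 and 0.23. In the classes between, the medians of members were not above those of outside genes: 0.14 against 0.16 from 7 to 8, and 0.10 against 0.12 from 8 to 9. There 2 of 17 and 0 of 26 members passed 1.5-fold, against 3.20% and 1.15% of outside genes.

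By function, the members were described from lists of their known roles. Of 14 measured neuronal and synaptic members, 9 were lower and 5 higher, with a median of -0.12 beside 0.00 for all genes outside, and Tmem59l alone passed 1.5-fold. The list is loose and also holds Marchf1, Slc10a7 and Tmem161a, which are not particular to neurons. Rab3a, the GTPase that binds synaptic vesicles, read 3619 against 4285 (-0.24, array error 0.16), and its second probe set differed by -0.51. Map1s, a microtubule-associated protein gene, read 415 against 547 (-0.40, array error 0.23). Kcnn1, which encodes a small-conductance calcium-activated potassium channel, went the other way at 97.0 against 66.9 (0.54, array error 0.32), just under 1.5-fold.

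Of 20 measured members on the list of transcription and chromatin genes, 6 were lower and 14 higher, with a median of 0.14. The list also holds Eps15l1, an endocytic adaptor gene, and Hhip. Only Rfxank passed 1.5-fold. Zfp868, a zinc finger gene, read 153 against 105 (0.54, array error 0.32). Klf2, a transcription factor of endothelium and lymphocytes, read 150 against 222 (-0.57, array error 0.26), just under 1.5-fold. Endothelial markers were higher in 5 of 7, with summed signals of 1829 (knockout) and 1637 (wild type), and their part in this value was not tested.

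The 15 measured members for translation and protein turnover had a median of -0.04, with 9 lower and 6 higher, and Sugp2 was the one past 1.5-fold. This list is loose too, since Sugp2 is a splicing gene and Cope and Use1 are genes of vesicle transport. Use1, a SNARE of transport to the endoplasmic reticulum, read 760 against 994 (-0.39, array error 0.21), and all 3 of its measured probe sets were lower. Pgpep1, a peptidase that removes pyroglutamate from peptides, read 91.5 against 117.5 (-0.36) and 64.8 against 102.9 (-0.67) by its measured probe sets. The 7 measured signalling members had a median of -0.04 and none passed 1.5-fold. Among them Fcho1, an organiser of clathrin-coated pits, read 594 against 477 (0.32, array error 0.21), with all 3 probe sets higher.

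Of 16 measured members for mitochondria and metabolism, 9 were lower and 7 higher, with a median of -0.01. Slc5a5, which passed 1.5-fold, is a plasma membrane transporter, and the list also holds Armc6, Klhl26, Mau2 and Pbx4, which are not metabolic genes by their known products. Pbx4, a homeobox gene, read 87.7 against 67.7 (0.37, array error 0.32). Ndufa13, a subunit of respiratory complex I, read 3715 against 3201 (0.21, array error 0.16), and Atp6v1b2, a subunit of the vacuolar proton pump, 5510 against 5113 (0.11) with its other probe set of opposite sign. The list for cytoskeleton, mitosis and replication had 7 measured members, 5 lower and 2 higher, with a median of -0.40. Those past 1.5-fold were Haus8 and Ano8. This list is loose as well, since Ano8 is a membrane tether and Dda1 a part of the DDB1 ubiquitin ligase. Its median describes these 7 genes only. Dda1, which starts next to Ano8, read 561 against 837 (-0.58, array error 0.21), while its next probe set differed by -0.12.

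Some genes were read by more than 1 probe set. Of 42 members with at least 2 measured probe sets, the 2 brightest had the same sign in 25 (59.5%, exact interval 43.3% to 74.4%), against 54.7% of 5102 genes outside. The gap between the 2 readings was larger in the stretch, with a median of 0.31 on the log2 scale against 0.19 outside. The SD between probe sets of one gene was 0.40 over 103 member probe sets and 0.25 over 13598 others, and it was larger among members in all 5 signal classes. Over all measured probe sets, 18 of 159 in the stretch (11.3%) differed at least 1.5-fold, against 4.25% outside. Of these 8 were higher, against 2.52%, and 10 lower, against 1.73%. At 2-fold it was 6 (3.77%), against 0.519%. Of these 6, 4 (in Haus8, Slc5a5, Myo9b and Mau2) had a pool below the limit and were measured through the other pool, so these counts support nothing on their own. Below the limit, 13 of 94 member probe sets (13.8%) differed at least 1.5-fold, against 13.6% of 13223 such probe sets outside, a share near the background.

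Several measured readings past 1.5-fold do not appear in the values by gene, since a brighter probe set of the same gene differed less. Mau2, which loads cohesin onto chromosomes, read 177.1 against 42.4 by 1 probe set (4.18-fold higher), while its brightest differed by 0.07. Myo9b, an unconventional myosin, read 118.3 against 41.8 by its second probe set (2.83-fold higher), while the brightest differed by 0.04. Colgalt1, a collagen galactosyltransferase gene, was lower by both, at -0.31 and -0.86. Mau2, Myo9b and Colgalt1 were chosen after their values were seen.

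**Figure D4:**
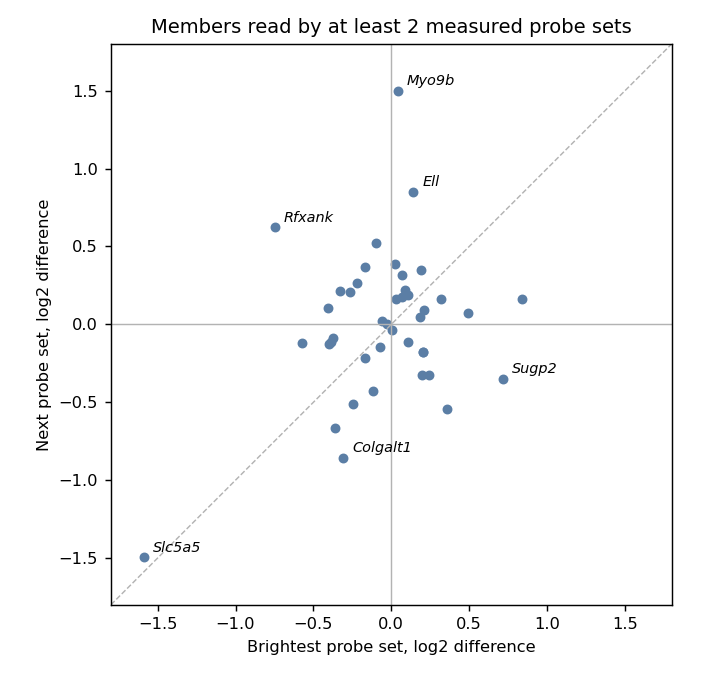
Log2 differences of the 42 members with at least 2 measured probe sets, the brightest on the horizontal axis and the next on the vertical; the dashed line marks equal values. Slc5a5 lies next to the line, 3.00-fold and 2.82-fold lower, whereas Myo9b (0.04 and 2.83-fold higher), Rfxank (-0.75 and 0.62) and Sugp2 (0.72 and -0.35) lie far from it. The next readings of Slc5a5 and Myo9b had 1 pool below the limit of a measured probe set.

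Across the genome, 142 stretches of 15 Mb on the same grid held at least 30 measured genes. The stretch around Crtc1, without the genes left out by the rule, ranked 5 by its share past 1.5-fold (8.16%), tied with 1 other. The other 141 ran from 0% to 11.5% with a median of 2.94%. By the median absolute difference it ranked 2, at 0.19 against a median of 0.13 over the others, and by the share past 2-fold it ranked 4. The stretches above it by share held 36 to 52 measured genes, whereas this one held 98. Among the 71 stretches with at least 60 measured genes it ranked 1. The stretch that led by the median absolute difference was also on chromosome 8, from 35 to 50 Mb, at 0.21 over 37 genes. Of these, 3 passed 1.5-fold (8.11%). The adjoining 50 to 65 Mb, without Msmo1, held 22 measured genes, too few to be ranked. Its median was 0.24, above that of the stretch around Crtc1, and 2 genes passed 1.5-fold (9.09%). On the other side, from 80 to 95 Mb, the median was 0.13 and 6 of 99 genes passed (6.06%). The rank by share moved between 1 and 18 over the alternatives and was lowest when probe sets with such names were left out.

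**Figure D5:**
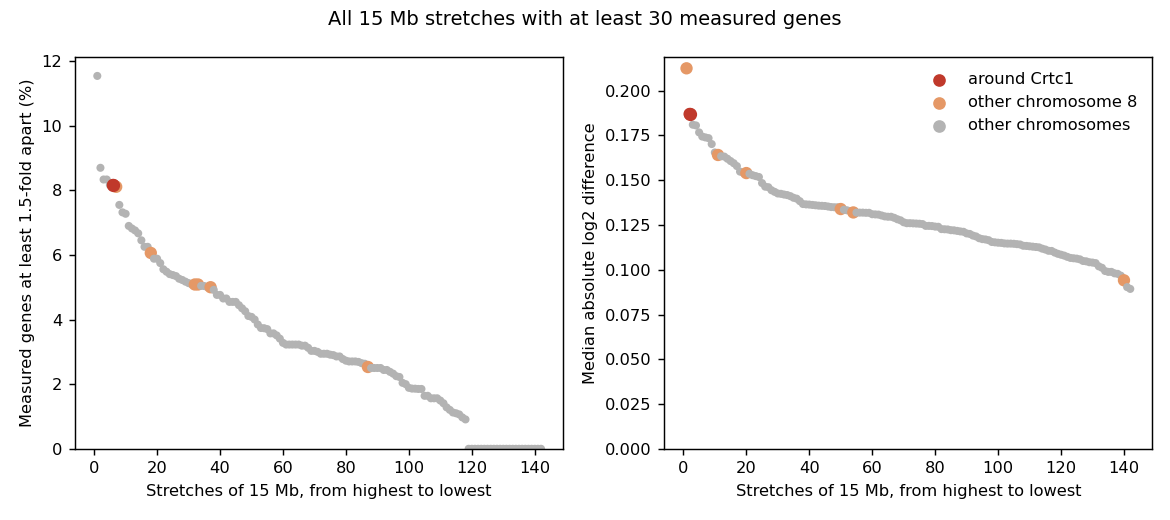
Share of measured genes at least 1.5-fold apart (left) and median absolute log2 difference (right) in 142 stretches of 15 Mb, sorted from highest to lowest; red marks the stretch around Crtc1, orange the other stretches of chromosome 8. The red point stands at 8.16% (rank 5) on the left and at 0.19 (rank 2) on the right.

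The cAMP response element was looked for in RefSeq promoters (250 bases before to 50 after each start, on both strands), which matched 85 of the 98 measured members. The full motif TGACGTCA was in the promoters of 8 (9.41%), against 3.56% of the measured genes outside that have a promoter in the table. The 8 genes share 6 motif positions, since Cope and Ddx49, and Abce1 and Anapc10, start close together in opposite directions. The others are Zfp868, Tmem59l, Prmt9 and Hhip. The shorter core, TGACG or CGTCA, which also lies within the full motif, was in 43.5% of the members and 36.1% of the genes outside. Of the 8 members past 1.5-fold, 7 had a promoter in the table, and Tmem59l was the one with either motif. Of the other members with the full motif, Abce1, Anapc10 and Prmt9 differed by at most 0.04 in size. A match describes these letters only and is no sign of binding.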

How the data were processed

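Hypothalamus RNA pools of the Crtc1 knockout and the wild type were measured on 1 array each. The authors deposited linear probe-set signal intensities; the sources used here do not say how probes were summarised and scaled. The mean of the values without the lowest and highest 2% was 199.7 and 199.9, and log2 signals of measured probe sets correlated at r = 0.984 across probe sets. Medians differed by 0.06 on the log2 scale, so the deposited scale was kept.

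Of 45101 probe sets, 64 controls were left out, and 34945 of the rest were paired with 1 gene. Symbols and positions came through Entrez ID from the RefSeq table of GRCm38.p6. Signals were floored at each array's 30th percentile (20.5 and 20.2) before log2 was taken. A probe set was measured from the 50th percentile of mean log2 signals up, and a gene took its brightest measured probe set. Stretches of 15 Mb started at 5 Mb on every chromosome. Intervals are exact binomial at 95% and cover counting error only; the number of arrays limits the precision. Python 3.11.15, numpy 2.4.6, pandas 2.3.3, scipy 1.17.1 and statsmodels 0.14.6 were used, and the steps were tested on simulated data.

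Named genes were members past 1.5-fold on both sides and the 5 nearest measured members on each side of Crtc1. Up to 3 of each function list, the 5 brightest and those at the ends of the stretch were also named. The members and lists were chosen with earlier results of these data known.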

Additional observations from a re-analysis of the deposited data

How the results depend on the processing

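No test was made, so calls are counts past a fold. Without a filter on dim probe sets, 15 of 138 genes of the stretch passed 1.5-fold (10.9%, against 6.90% outside). At 2-fold it was 5 (3.62%, against 1.31%), and 14 of those past 1.5-fold lay within 2.5 Mb. With a filter at the 70th percentile, 4 of 74 passed 1.5-fold (5.41%, against 1.10%), all 4 within 2.5 Mb. In the main setting 77 of the 98 measured members lie within 2.5 Mb. Such totals were not worked out for these 2 filters, so the near counts are not read further. The filter at the 70th percentile also lowered the count at 2-fold. At 2-fold it was 1 (1.35%, against 0.115%). With the left-out genes of the stretch kept, Crtc1 among them, 13 of 104 passed 1.5-fold (12.5%, against 3.25% outside). At 2-fold it was 6 (5.77%, against 0.385%). Over probe sets instead of genes, a unit added after seeing the data, 18 of 159 passed 1.5-fold (11.3%, against 4.25%). The rank of the stretch by share past 1.5-fold was 1 with median centring, quantile normalization, loess, a floor at the 50th percentile, the left-out genes kept, or at least 60 genes a stretch. It was 3 with a pseudocount of 16, 9 with averaged probe sets, 16 without a filter and 18 without probe sets whose names end in _s_at, _x_at or _a_at. It was 15 of 411 overlapping stretches, and 2 by the median absolute difference. The short motif core alone was in 43.5% of the promoters. Sugp2 reversed to -0.35 without the probe sets whose names end in _s_at, _x_at or _a_at. Higher calls alone numbered 7 without a filter, 5 with the left-out genes kept and 0 without those probe sets. Lower calls numbered 2 with the filter at the 70th percentile. The outside shares by direction were not worked out for each alternative, so these counts are not read further. Other totals past 1.5-fold and 2-fold stayed within 1.5 times the reported ones, and the median absolute difference was 0.17 to 0.19 in every alternative, above that of outside genes each time.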

Other observations

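Chromosome 8 outside the stretch also held larger differences than most chromosomes. Of its 486 measured genes beyond the stretch, without Msmo1, 24 (4.94%) differed at least 1.5-fold, second to the X chromosome (5.22%) among 20 chromosomes, where the other values began at 1.59%. Its median absolute difference of 0.15 was the highest of the 20, the others running from 0.12 to 0.14.

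The disagreement between probe sets of one gene was set out by stretch, a measure chosen after seeing the data. Of 110 stretches with at least 20 such genes, the one around Crtc1 ranked 2, with a median gap of 0.31 on the log2 scale, while the others had a median of 0.19.

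Some member probe sets below the limit of a measured probe set also read apart. Ocel1 read 93.6 in the knockout pool and 18.7, below the floor, in the wild-type pool. Ints10 read 53.2 against 21.2 by a dim probe set, while its brightest differed by -0.17, and a dim probe set of Hhip read 65.9 against 26.2, in the direction of its brightest. These genes were chosen after their values were seen.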
